A study of Mus musculus with 16 samples.

Results

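The genes described here are 10 known markers of lipid-associated macrophages, the Trem2-bearing macrophages of fatty tissue: Trem2, Gpnmb, Mmp12, Spp1, Cd9, Cd63, Itgax, Atp6v0d2, Lgals3 and Cd68. They were taken by symbol from a table of read counts for 53465 genes in mouse liver. Each symbol matched 1 row, and all 10 had enough counts to be tested among 14998 tested genes. The livers came from C57BL/6 mice aged 29 to 30 weeks. Mice were first kept on a control diet (CD) or a high-fat diet (HFD) for 16 weeks, which gave normal or steatotic (fatty) livers, and then received vehicle or perfluorooctanoic acid (PFOA), a persistent perfluorinated surfactant, during 8 further weeks. The 4 groups, CD_vehicle, CD_PFOA, HFD_vehicle and HFD_PFOA, hold 4 mice each, and every library is 1 mouse and is named by its group and number. The comparisons ask how the fatty diet and PFOA, alone and together, shift these macrophage genes. For sex and PFOA dose, the sources used here give no value.

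Lipid-associated macrophages gather where cells load or shed fat, in obese adipose tissue, in fatty liver and in atherosclerotic plaque. TREM2 is their lipid-sensing surface receptor and signals through the adaptor TYROBP, and its activation turns on genes for lipid uptake and lysosomal breakdown. In steatotic liver, many of these cells are thought to derive from recruited monocytes and to stand beside the resident Kupffer cells.

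Total counts per library ran from 14456524 to 25778125. Library CD_vehicle 4 stood apart from the rest of its group: 10 B and plasma cell markers summed to 651.6 CPM (counts scaled by the TMM-adjusted library size), against 19.0 to 69.1 CPM in the other libraries, and its T and NK cell markers to 22.4 CPM against at most 9.19 CPM. It was also the highest of its group for 10 of the 10 genes. Library HFD_PFOA 1 was the lowest of its group for 9 of 10. Tests between groups that turn on these libraries are given with and without them, and the part of lymphocyte RNA in those results was not tested. Over all genes, CD_vehicle 1 differed most from the other CD_vehicle libraries. Its pairs had a chi-square divided by its degrees of freedom of 135 to 152, against 16.8 to 58.9 among CD_vehicle 2 to 4. In RNA from whole liver, fewer cells of a type and less RNA per cell cannot be told apart.

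In GENCODE M21 on GRCm38, the surface proteins map as follows. Trem2 (ENSMUSG00000023992.14) lies on chromosome 17 at 48346401–48354147, Gpnmb (ENSMUSG00000029816.10) on chromosome 6 at 49036546–49070929 and Itgax (ENSMUSG00000030789.9) on chromosome 7 at 128129547–128150657. The tetraspanin genes Cd9 (ENSMUSG00000030342.8) and Cd63 (ENSMUSG00000025351.14) lie on chromosome 6 at 125460266–125494791 and on chromosome 10 at 128900989–128912822. Of the secreted proteins, Mmp12 (ENSMUSG00000049723.14) lies on chromosome 9 at 7344381–7369499, Spp1 (ENSMUSG00000029304.14) on chromosome 5 at 104435118–104441050 and Lgals3 (ENSMUSG00000050335.17) on chromosome 14 at 47367751–47386160. The lysosomal Atp6v0d2 (ENSMUSG00000028238.6) lies on chromosome 4 at 19876841–19922605 and Cd68 (ENSMUSG00000018774.13) on chromosome 11 at 69664213–69666153. Counting could confuse 4 of them with other genes. Of the 50-base words of Cd63, 36.5% also occur in the pseudogene Cd63-ps, and 15.5% of those of Cd9 in Gm26728 or Cd9-ps. For Itgax, 9.61% occur in its neighbour Itgad, and for Spp1, 9.05% in Gm42793. The values of these 4 genes are uncertain to that extent, with 91 counts in Cd63-ps and 11 to 16 in each of the others over the 16 libraries.

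Promoter windows of 250 bases before a transcript start were found for 9 of the 10 genes in the RefSeq sequences of GRCm38.p6. Both strands were searched for 5 motifs: AP-1 (TGANTCA), the E-box (CACGTG), its extended form in lysosomal gene promoters (TCACGTGA, which contains the E-box), the M-box (TCATGTG) and a PU.1 core (GAGGAAGT). The AP-1 letters occurred in 4 of 9 genes, against 7.82% of all 27025 genes with a window and 6.75% of all windows. The E-box occurred in 0 of 9 genes, against 6.86% of all genes, and the extended form in 0 of 9 against 0.907%. Mmp12 held the M-box and the PU.1 core, and Spp1 the PU.1 core, against 3.72% and 2.79% of all genes. In Mmp12 the PU.1 core lies in the window of the first listed start, chr9:7344147-7344396, which has no AP-1 letters. Its AP-1 letters and M-box lie in the window of the second listed start. Only the 4 windows with AP-1 letters are printed, and a match is a description of letters only. Genes with these letters and genes without them, such as Gpnmb and Lgals3, rise with the fatty diet below. A link between the letters and the levels was not tested. Each printed window is written 5′ to 3′ on the gene's strand, with AP-1 matches in capitals, and in Mmp12 also the M-box match CACATGA (the reverse strand's TCATGTG).
Trem2 promoter, chr17:48346151-48346400, plus strand: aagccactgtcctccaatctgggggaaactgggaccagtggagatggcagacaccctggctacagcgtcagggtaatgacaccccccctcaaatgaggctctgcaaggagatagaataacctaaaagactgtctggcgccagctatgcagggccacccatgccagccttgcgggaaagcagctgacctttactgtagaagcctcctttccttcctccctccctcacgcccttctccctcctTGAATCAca
Itgax promoter, chr7:128129300-128129549, plus strand: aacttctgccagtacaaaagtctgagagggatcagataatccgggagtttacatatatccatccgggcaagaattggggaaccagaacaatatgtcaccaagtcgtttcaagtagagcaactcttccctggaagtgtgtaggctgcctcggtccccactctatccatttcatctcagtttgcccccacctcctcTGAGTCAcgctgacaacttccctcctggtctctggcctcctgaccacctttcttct
Cd68 promoter, chr11:69666171-69666420, minus strand: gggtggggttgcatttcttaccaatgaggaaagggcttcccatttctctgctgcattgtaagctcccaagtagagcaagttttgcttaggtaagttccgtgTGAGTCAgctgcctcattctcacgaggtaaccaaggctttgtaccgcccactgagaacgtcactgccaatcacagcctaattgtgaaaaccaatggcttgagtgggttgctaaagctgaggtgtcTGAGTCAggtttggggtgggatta
Mmp12 promoter of the second listed start, chr9:7347124-7347373, plus strand: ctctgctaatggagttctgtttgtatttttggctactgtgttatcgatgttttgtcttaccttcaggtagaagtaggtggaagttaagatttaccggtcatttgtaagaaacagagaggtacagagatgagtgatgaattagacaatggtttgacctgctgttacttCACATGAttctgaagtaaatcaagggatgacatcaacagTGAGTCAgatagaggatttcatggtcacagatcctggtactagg
In Trem2 the match lies 9 to 3 bases before the start, in Itgax 56 to 50 and in Mmp12 44 to 38. Cd68, the only one of the 4 with a second AP-1 match, has them 149 to 143 and 24 to 18 bases before its start.

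High-fat feeding raised nearly the whole set in livers given vehicle. Of the 10 genes, 9 rose in HFD_vehicle against CD_vehicle at an adjusted p under 0.05 and 0 fell, where 5.19% of all tested genes rose and 5.21% fell. The 10 genes were chosen with earlier results of these data known, so the counts here and below describe the set and do not test it. The median log2 fold change of the 10 was 1.94, against -0.03 over all tested genes. In 8 genes every HFD_vehicle library lay above every CD_vehicle library, which held for 7.25% of tested genes. The tests are edgeR's quasi-likelihood tests with Benjamini-Hochberg adjustment over all tested genes, and levels are CPM after TMM scaling, as mean ± SD over 4 mice.

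**Figure D1:**
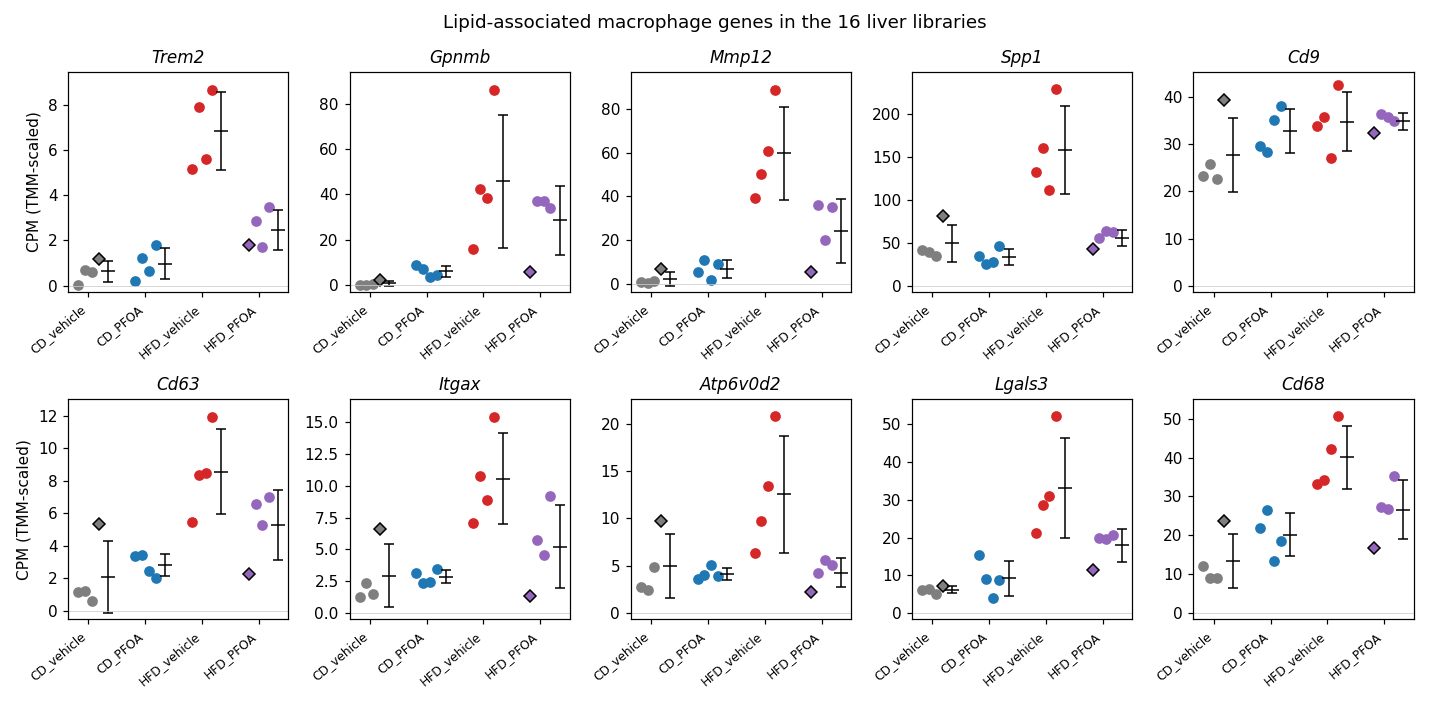
Level of each of the 10 genes in every library, in TMM-scaled CPM (y axis), by group (x axis). Points are libraries, diamonds mark CD_vehicle 4 and HFD_PFOA 1, and the bar beside each group is the mean ± SD of 4 mice. The HFD_vehicle points lie highest for most genes, with Trem2 at 5.14 to 8.66 CPM against 0.0417 to 1.20 CPM in CD_vehicle, while Cd9 differs little between groups.

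Among the surface proteins, Trem2 was at 0.0417, 0.687, 0.609 and 1.20 CPM in CD_vehicle 1 to 4 and at 5.14, 7.91, 5.60 and 8.66 CPM in HFD_vehicle 1 to 4. The groups did not overlap, and the rise was 10.7-fold (log2 fold change 3.42 ± 0.59 (SE), edgeR adjusted p = 0.00114). Gpnmb, a membrane glycoprotein of phagocytic macrophages, was at 0.0834, 0, 0.281 and 2.18 CPM in CD_vehicle and at 15.9, 42.3, 38.5 and 86.4 CPM in HFD_vehicle. The 0 in CD_vehicle 2 allows up to 0.137 CPM (3 counts; counting error only). Gpnmb was nearly silent in 3 of the 4 control livers and rose most of the set, 70.2-fold (log2 6.13 ± 0.78, edgeR adjusted p = 1.25e-04). Itgax, which encodes the integrin CD11c of dendritic cells and activated macrophages, rose from 2.94 ± 2.497 to 10.6 ± 3.59 CPM (3.59-fold, edgeR adjusted p = 0.0202). Cd63, a tetraspanin of late endosomes and lysosomes, rose from 2.07 ± 2.198 to 8.56 ± 2.63 CPM (4.12-fold, edgeR adjusted p = 0.0121).

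Cd9, a tetraspanin of the cell surface and of exosomes, was the gene that did not pass. It was at 23.2, 25.9, 22.7 and 39.4 CPM in CD_vehicle and at 33.9, 35.8, 27.2 and 42.5 CPM in HFD_vehicle. The groups overlapped through CD_vehicle 4, and the difference was 0.33 ± 0.16 on the log2 scale (edgeR adjusted p = 0.217). Without CD_vehicle 4 it was 0.55 (edgeR adjusted p = 0.00851), and all 10 genes then rose, where 7.99% of tested genes did.

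RNA of all 3 genes for secreted proteins rose as well. Mmp12, the macrophage elastase, was at 0.876, 0.183, 1.31 and 6.96 CPM in CD_vehicle and at 39.5, 50.1, 60.8 and 88.8 CPM in HFD_vehicle. Every HFD_vehicle library was above the highest control, CD_vehicle 4, and the rise was 25.3-fold (log2 4.66 ± 0.71, edgeR adjusted p = 4.83e-04). Spp1, which encodes the matrix cytokine osteopontin and is also made by bile duct cells, was at 41.1, 39.6, 35.0 and 81.4 CPM in CD_vehicle and at 132, 160, 111 and 228.7 CPM in HFD_vehicle (3.21-fold, edgeR adjusted p = 5.06e-04). Lgals3, the sugar-binding galectin-3, was at 6.13, 6.32, 4.96 and 7.18 CPM and at 21.2, 28.5, 30.9 and 52.1 CPM (5.39-fold, edgeR adjusted p = 1.60e-04). Neither Spp1 nor Lgals3 overlapped between the diets.

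Of the lysosomal genes, Cd68, a heavily glycosylated membrane protein of macrophage lysosomes, rose from 13.4 ± 7.02 to 40.1 ± 8.14 CPM (2.99-fold, edgeR adjusted p = 0.00149). Atp6v0d2, a subunit of the proton pump that acidifies lysosomes, was at 2.75, 2.38, 4.87 and 9.78 CPM in CD_vehicle and at 6.37, 9.69, 13.4 and 20.8 CPM in HFD_vehicle. CD_vehicle 4 lay above the 2 lowest HFD_vehicle libraries, and the 2.54-fold rise passed narrowly (edgeR adjusted p = 0.0379). Its call was lost in 6 fits that left out 1 library, CD_vehicle 1, 2 or 3 or HFD_vehicle 2, 3 or 4, with adjusted p from 0.0531 to 0.173. That of Itgax was lost without CD_vehicle 2, CD_vehicle 3 or HFD_vehicle 4 (adjusted p 0.0576, 0.0699 and 0.0777). Without CD_vehicle 4, Atp6v0d2 rose by 1.92 and Itgax by 2.63 on the log2 scale (edgeR adjusted p = 0.00167 and 6.02e-04), Gpnmb by 8.53, Mmp12 by 6.24 and Cd63 by 3.12. Scaling by library totals moved the median of all genes to 0.19 and the share of calls that were higher from 49.9% to 87.7%, and 10 of 10 genes were then called higher, where 13.7% of tested genes were.

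**Figure D2:**
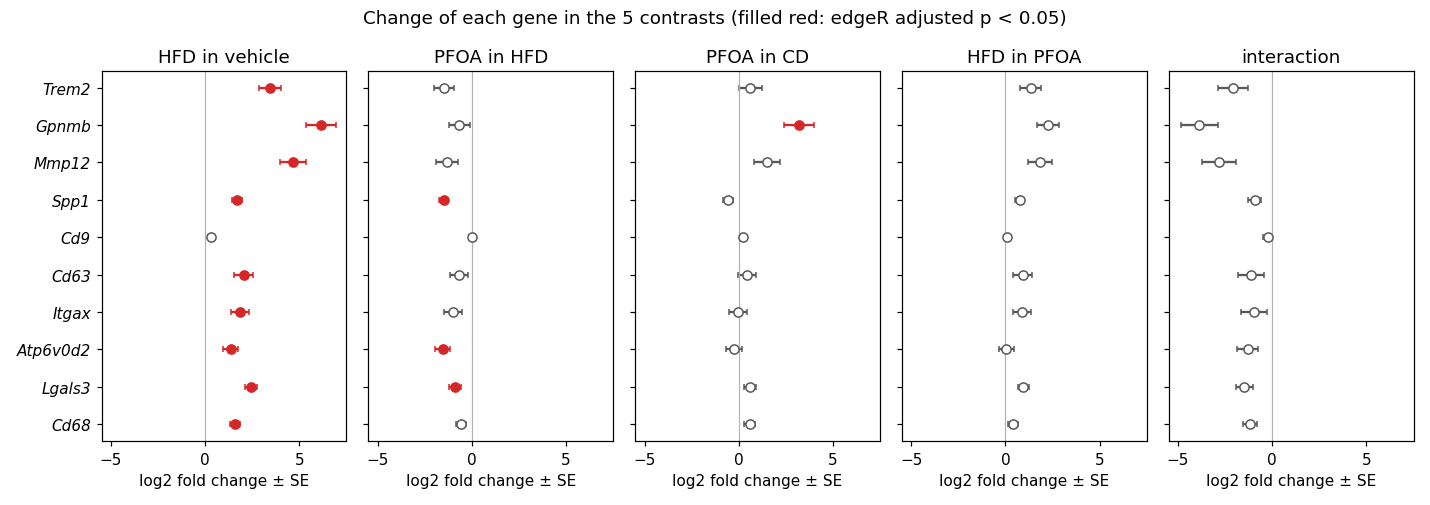
Log2 fold change ± SE (x axis) of each of the 10 genes (y axis) in the 5 contrasts, 1 panel each, from the fit on 16 libraries. Filled points have an edgeR adjusted p under 0.05: 9 with HFD in vehicle, 3 with PFOA in HFD, 1 with PFOA in CD, 0 with HFD in PFOA and 0 in the interaction.

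In fatty livers, PFOA lowered 3 of the 10 genes, Spp1, Atp6v0d2 and Lgals3, and raised 0, where 7.91% of tested genes fell and 8.60% rose. The fold changes of all 10 were below 0, with a median of -0.95 against 0.01 over all tested genes. In 5 genes, Trem2, Mmp12, Spp1, Atp6v0d2 and Lgals3, every HFD_PFOA library lay below every HFD_vehicle library, which held for 12.5% of tested genes. The comparison shares its HFD_vehicle libraries with the diet comparison above, so the 2 sets of values are not independent of each other.

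Spp1 was at 42.5, 55.7, 63.2 and 61.9 CPM in HFD_PFOA 1 to 4, against 111 to 228.7 CPM in HFD_vehicle. It fell 2.83-fold (log2 fold change -1.50 ± 0.26, edgeR adjusted p = 2.91e-04), and it stayed called in every fit that left out 1 library. HFD_PFOA livers held 35.3% of the HFD_vehicle mean of Spp1. The CD_vehicle mean of 49.3 ± 21.6 CPM includes CD_vehicle 4 at 81.4 CPM. CD_vehicle 1 to 3 were at 41.1, 39.6 and 35.0 CPM, below every HFD_PFOA library. Atp6v0d2 was at 2.203, 4.26, 5.60 and 5.05 CPM in HFD_PFOA and fell 2.93-fold (log2 -1.55 ± 0.40, edgeR adjusted p = 0.0103). All 4 HFD_PFOA libraries were below the lowest HFD_vehicle library, at 6.37 CPM. Without HFD_vehicle 4, the Atp6v0d2 call was lost (log2 -1.19, edgeR adjusted p = 0.0605). Lgals3 was at 11.3, 19.9, 19.7 and 20.6 CPM in HFD_PFOA and fell 1.86-fold, just past the threshold (edgeR adjusted p = 0.0478). Its call was lost without any 1 of 11 libraries: HFD_vehicle 2, 3 or 4, any of the 4 HFD_PFOA libraries, CD_vehicle 2 or 3, or CD_PFOA 2 or 4 (adjusted p 0.0511 to 0.227).

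The other 7 genes did not pass. Trem2 was at 1.78, 2.87, 1.71 and 3.49 CPM in HFD_PFOA, 36.1% of its HFD_vehicle mean, without overlap between the groups (log2 -1.47 ± 0.53, edgeR adjusted p = 0.0638). It did pass without CD_vehicle 1, CD_vehicle 4 or CD_PFOA 1, libraries of other groups in the shared fit (edgeR adjusted p = 0.0182, 0.0408 and 0.0352), and with DESeq2 (adjusted p = 0.0269). Mmp12 was at 5.46, 36.3, 19.9 and 35.3 CPM, all under the lowest HFD_vehicle value of 39.5 CPM (log2 -1.30 ± 0.58, edgeR adjusted p = 0.146). Gpnmb was at 5.59, 37.2, 37.2 and 34.1 CPM, so that 3 of the 4 livers lay within the HFD_vehicle range and HFD_PFOA 1 below it (log2 -0.68 ± 0.56, edgeR adjusted p = 0.473). Itgax had a log2 fold change of -1.01 (edgeR adjusted p = 0.162), Cd63 of -0.70 (0.364) and Cd68 of -0.60 (0.159). Cd9 was at 32.5, 36.4, 35.8 and 34.9 CPM in HFD_PFOA, 100.1% of the HFD_vehicle mean, with an edgeR adjusted p of 0.997.

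Without HFD_PFOA 1, the lowest library for 9 of the 10 genes, 2 genes were called lower, Spp1 (log2 -1.39, edgeR adjusted p = 0.00174) and Atp6v0d2 (log2 -1.34, edgeR adjusted p = 0.0377), where 6.90% of tested genes fell. Gpnmb then had a log2 fold change of -0.34 and Mmp12 of -0.97. Without HFD_vehicle 4, the highest of its group for 10 of 10 genes, only Spp1 was called (log2 -1.27, edgeR adjusted p = 0.00160), where 6.32% of tested genes fell. A fit on the 2 groups alone called 6 genes lower, adding Trem2, Mmp12 and Cd68, where 12.3% of tested genes fell.

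In livers on control diet, PFOA raised 1 of the 10 genes, Gpnmb, and lowered 0, where 11.8% of tested genes rose and 12.6% fell. Gpnmb was at 8.81, 7.12, 3.33 and 4.46 CPM in CD_PFOA 1 to 4, above all CD_vehicle libraries, a 9.09-fold rise (log2 3.18 ± 0.80, edgeR adjusted p = 0.00581). The CD_PFOA mean of 5.93 ± 2.49 CPM was below the 45.8 ± 29.5 CPM of HFD_vehicle. Gpnmb was the only one of the 10 whose CD_PFOA and CD_vehicle libraries did not overlap, and 11.1% of tested genes had the same separation upward. For the set as a whole, both counts thus lie near the shares of all tested genes.

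The other 9 genes overlapped between the groups. Mmp12 was at 5.57, 10.7, 1.85 and 8.997 CPM in CD_PFOA, above CD_vehicle 1 to 3 but not above the 6.96 CPM of CD_vehicle 4 in 2 of 4 livers (log2 1.52 ± 0.69, edgeR adjusted p = 0.121). Cd68 was at 20.1 ± 5.55 CPM in CD_PFOA (log2 0.59, edgeR adjusted p = 0.143), Lgals3 at 9.23 ± 4.65 CPM (log2 0.58, 0.202) and Trem2 at 0.970 ± 0.697 CPM (log2 0.62, 0.502). Spp1 went the other way without passing, at 34.3, 24.9, 27.4 and 45.8 CPM (log2 -0.57 ± 0.26, edgeR adjusted p = 0.113), and it passed without CD_PFOA 4 (log2 -0.77, edgeR adjusted p = 0.0478). Lgals3 passed without CD_PFOA 3 (log2 0.83, edgeR adjusted p = 0.0400).

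Without CD_vehicle 4, PFOA in CD raised 5 of the 10 genes, where 12.8% of tested genes did: Gpnmb (log2 5.57, edgeR adjusted p = 4.17e-04), Mmp12 (3.09, 0.00315), Cd63 (1.52, 0.00746), Cd68 (1.01, 0.00351) and Cd9 (0.45, 0.0166). Itgax and Atp6v0d2 changed sign, from -0.05 and -0.25 to 0.74 and 0.32, and stayed above the threshold in both fits. Spp1 was then at -0.22. Cd63 was at 2.81 ± 0.703 CPM in CD_PFOA and 8.56 ± 2.63 CPM in HFD_vehicle, and Cd9 at 32.8 ± 4.64 and 34.8 ± 6.31 CPM.

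**Figure D3:**
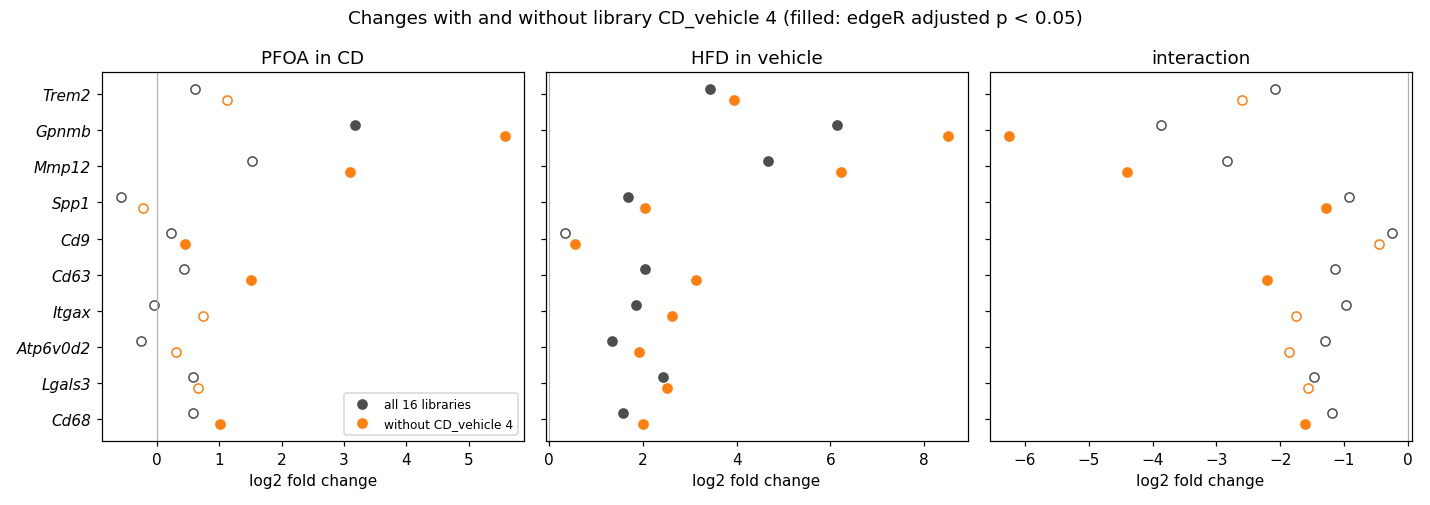
Log2 fold change (x axis) of each gene (y axis) with all 16 libraries (grey) and without CD_vehicle 4 (orange), for PFOA in CD, HFD in vehicle and the interaction. Filled points have an edgeR adjusted p under 0.05: leaving the library out takes the genes called from 1 to 5, from 9 to 10 and from 0 to 5.

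Between the 2 groups given PFOA, the median log2 fold change with the fatty diet was 0.89, against 1.94 under vehicle. The interaction below is the test of that difference, and with all 16 libraries edgeR called 0 genes in it. All 10 fold changes of HFD_PFOA against CD_PFOA were above 0, but 0 genes were called by edgeR and 0 by DESeq2. Of all tested genes, edgeR called 0.0467% higher. DESeq2 called 1.52% of the genes to which it gave an adjusted p, in either direction, and 55.3% of its calls were higher. At an unadjusted p under 0.05, 5 were higher (5.86% of tested genes): Gpnmb (log2 2.26 ± 0.60, edgeR adjusted p = 0.146), Mmp12 (1.83 ± 0.62, 0.252), Trem2 (1.34 ± 0.55, 0.378), Lgals3 (0.95 ± 0.31, 0.235) and Spp1 (0.75 ± 0.26, 0.252). In 10 of 10 genes the 2 groups overlapped, where 4.15% of tested genes were higher without overlap. Without HFD_PFOA 1 the median was 1.14 and edgeR again called 0 genes (7 at an unadjusted p under 0.05), where it called 0.0391% of tested genes higher. Atp6v0d2 stood at 4.28 ± 1.49 CPM in HFD_PFOA and 4.15 ± 0.653 CPM in CD_PFOA (log2 0.04).

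The interaction, the effect of PFOA on the fatty diet less its effect on the control diet, tests whether PFOA acted differently by diet. All 10 interaction values were below 0, with a median of -1.24, and edgeR called 0 genes, where it called 0.140% of tested genes lower. At an unadjusted p under 0.05, 7 were lower (5.37% of tested genes). DESeq2 called 1, Lgals3 (adjusted p = 0.0379). It called 1.85% of the genes to which it gave an adjusted p, in either direction, and 40.8% of its calls were higher. Gpnmb was furthest from 0 at -3.87 ± 0.98 (edgeR adjusted p = 0.109), followed by Mmp12 at -2.83 ± 0.91 (0.211) and Trem2 at -2.09 ± 0.79 (0.299). Without CD_vehicle 4, 5 were called lower, where 1.52% of tested genes were: Gpnmb (-6.26, edgeR adjusted p = 0.00673), Mmp12 (-4.40, 0.00960), Cd63 (-2.21, 0.0253), Cd68 (-1.61, 0.0113) and Spp1 (-1.28, 0.0257). Without HFD_PFOA 1 the median was -1.05 and 0 were called (6 at an unadjusted p under 0.05), where 0.104% of tested genes were. Without CD_vehicle 4 and HFD_PFOA 1 together, 4 were called (1.01% of tested genes), and Spp1 no longer.

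Across the 4 groups the order of levels was much the same from gene to gene. HFD_vehicle had the highest mean for 9 of 10 genes, HFD_PFOA the second for 8, and CD_vehicle the lowest for 7. Cd9 was the exception at the top, with 34.9 ± 1.72 CPM in HFD_PFOA and 34.8 ± 6.31 CPM in HFD_vehicle. HFD_PFOA and CD_PFOA, neighbours in this order for most genes, overlapped in all 10 genes, and CD_PFOA and CD_vehicle overlapped in 9. Spp1 and Atp6v0d2 had their lowest means in CD_PFOA, at 33.1 ± 9.33 and 4.15 ± 0.653 CPM, as did Itgax at 2.85 ± 0.529 CPM.

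Within HFD_vehicle the genes also ranked livers much alike, but within CD_PFOA they did not. HFD_vehicle 4 was highest of its group for 10 of 10 genes and HFD_vehicle 1 lowest for 8, and the 10 genes of HFD_vehicle 4 summed to 606 CPM against a group mean of 410 ± 135 CPM. In CD_PFOA no library led in more than 4 genes. Per kilobase of the longest coding transcript, Spp1 was the most abundant in HFD_vehicle at 105 ± 34.04 CPM per kb, followed by Cd68 at 32.6 ± 6.62, Cd9 at 28.4 ± 5.14 and Lgals3 at 23.4 ± 9.36 CPM per kb. Trem2 stood at 6.27 ± 1.58 and Itgax, the lowest, at 2.61 ± 0.888 CPM per kb. Gpnmb was the lowest of the 10 in CD_vehicle, at 0.172 ± 0.280 CPM per kb, and the sixth highest in HFD_vehicle, at 12.4 ± 7.97 CPM per kb.

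Outside the 10, the 5 tested genes whose log2 CPM followed the mean z-score of the 10 genes most closely over the 16 libraries were Nid1 (Pearson r = 0.97), Ctss (0.96), Myof (0.95), Capg (0.95) and Haus8 (0.94). The libraries share group and composition, so these r are a description. Nid1, a basement membrane protein, was at 25.6 ± 14.0, 41.4 ± 4.93, 86.5 ± 18.7 and 51.2 ± 9.55 CPM in CD_vehicle, CD_PFOA, HFD_vehicle and HFD_PFOA. Ctss, a lysosomal cysteine protease of antigen-presenting cells, was at 33.7 ± 11.5, 35.7 ± 6.42, 85.6 ± 16.2 and 58.2 ± 10.1 CPM. Both were picked for following the set, so the order of groups they share with it is no separate result.

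Set against general macrophage RNA, 3 of the 10 genes were lower in HFD_PFOA than in HFD_vehicle without overlap, where 2.41% of tested genes were. The 12 pan-macrophage markers (such as Mpeg1, Lyz2 and Mrc1) summed to 261 to 433 CPM in CD_vehicle, 201 to 453 in CD_PFOA, 519 to 653 in HFD_vehicle and 344 to 681 CPM in HFD_PFOA. Per 100 counts of these markers, Trem2 had 0.0136 to 0.276 counts in CD_vehicle, 0.955 to 1.52 in HFD_vehicle and 0.251 to 0.634 in HFD_PFOA. Trem2 thus separated HFD_vehicle from both other groups on this scale too. Spp1 had 19.6 to 35.0 counts in HFD_vehicle and 9.28 to 12.4 in HFD_PFOA, and Atp6v0d2 1.19 to 3.18 and 0.641 to 0.928, again without overlap. For Lgals3 (3.94 to 7.98 and 2.89 to 4.35) and Mmp12 (7.34 to 13.6 and 1.59 to 7.91) the ranges met. Gpnmb had 0 to 0.503 counts in CD_vehicle and 1.45 to 1.94 in CD_PFOA. Cd9 had fewer counts on this scale in HFD_vehicle (4.82 to 6.91) than in CD_vehicle (7.57 to 9.95). These ratios were described and not tested.

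**Figure D4:**
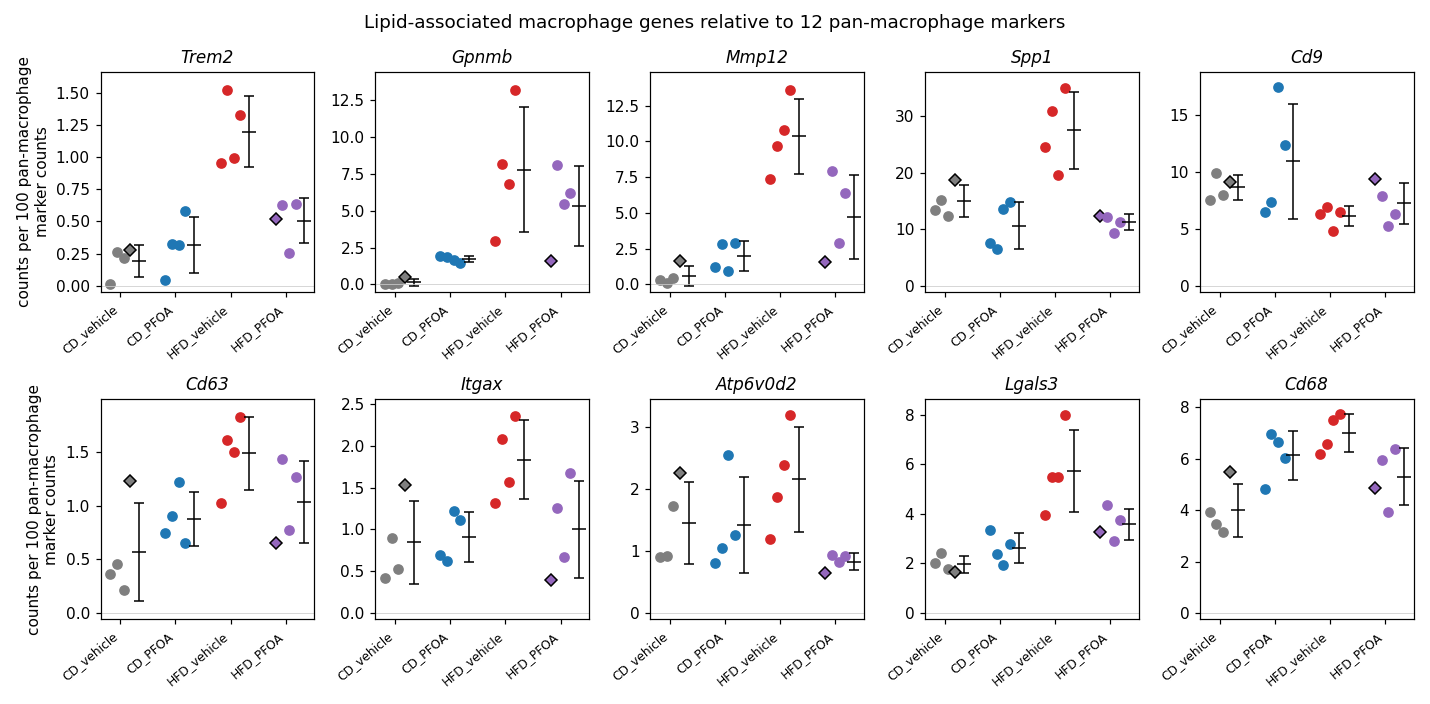
Counts of each gene per 100 counts of the 12 pan-macrophage markers (y axis) in every library, by group (x axis). Points are libraries, diamonds mark CD_vehicle 4 and HFD_PFOA 1, and bars are mean ± SD of 4 mice. Spp1, Trem2 and Atp6v0d2 keep a gap between HFD_vehicle and HFD_PFOA, and Cd9 is lower in HFD_vehicle than in CD_vehicle.

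Of 31 other genes of lipid-associated macrophages and the TREM2 pathway, 13 rose and 2 fell with the fatty diet in vehicle. Their median log2 fold change was 0.66, and over all tested genes 5.19% rose and 5.21% fell. Tyrobp, the TREM2 adaptor, rose from 11.3 ± 1.94 to 20.1 ± 4.53 CPM (edgeR adjusted p = 0.0445), and Clec7a, the receptor dectin-1, from 6.58 ± 3.03 to 32.7 ± 10.6 CPM (edgeR adjusted p = 5.06e-04). With PFOA in HFD, 8 rose and 4 fell, where 8.60% and 7.91% of tested genes did. With PFOA in CD, 7 rose and 1 fell, where 11.8% and 12.6% of tested genes did. Several of those that rose with PFOA are lipid-handling genes that hepatocytes also express, and which cells their RNA came from was not tested. Lpl, lipoprotein lipase, was at 35.5 ± 12.5 CPM in CD_vehicle, 489 ± 24.0 in CD_PFOA, 131 ± 29.9 in HFD_vehicle and 583 ± 14.6 CPM in HFD_PFOA. Plin2, the lipid droplet coat protein, was at 634 ± 111, 1554 ± 214, 726 ± 83.1 and 1898 ± 155 CPM, in the same order of groups.

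Cd36, the fatty acid transporter and scavenger receptor, rose with PFOA by 1.76 ± 0.14 (log2) on the control diet and 1.14 ± 0.14 on the fatty diet, and the lysosomal glycoprotein gene Creg1 by 0.85 ± 0.10 and 0.49 ± 0.10 (edgeR adjusted p at most 0.00176). Fabp4, a fatty acid carrier of adipocytes and macrophages, rose by 1.90 ± 0.23 and 1.83 ± 0.22. Fabp5, its relative, fell with the fatty diet from 19.1 ± 6.27 to 3.48 ± 1.07 CPM and was at 13.4 ± 2.14 CPM in HFD_PFOA (rise of 1.94 ± 0.29, edgeR adjusted p = 6.84e-05). Lpl and Fabp5 passed the interaction test, at -1.63 ± 0.24 (edgeR adjusted p = 0.00971) and 2.58 ± 0.39 (0.00996).

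Of 30 lysosome biogenesis genes, 2 rose with the fatty diet, Psap (log2 0.57 ± 0.10) and Hexa (0.53 ± 0.13), and 0 fell. Over all tested genes, 5.19% rose and 5.21% fell. The list joins targets of the MITF, TFEB and TFE3 factors with the genes of these factors. Some of its genes are also in the lists above. With PFOA in HFD, 3 fell, Naglu (-0.43 ± 0.10), Atp6ap1 (-0.33 ± 0.09) and Lamp1 (-0.28 ± 0.07), and 0 rose. Of all tested genes, 7.91% fell and 8.60% rose there. With PFOA in CD, 3 rose and 2 fell, where 11.8% of tested genes rose and 12.6% fell. Among them were Psap (0.49 ± 0.10), Naglu (-0.45 ± 0.10) and Lamp2 (-0.33 ± 0.09). The list's medians were 0.13, -0.15 and -0.10, against -0.03, 0.01 and -0.00 over all tested genes.

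**Figure D5:**
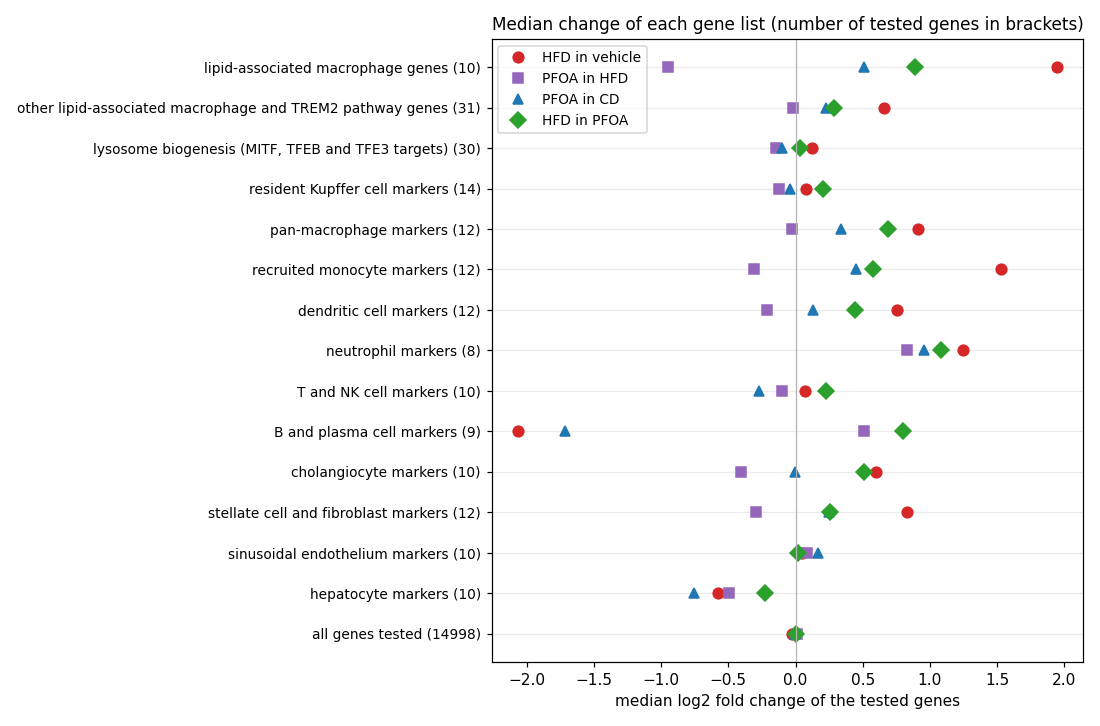
Median log2 fold change (x axis) of the tested genes of each list (y axis, number of genes in brackets) in 4 contrasts. The 10 genes lie at 1.94 with HFD in vehicle and -0.95 with PFOA in HFD, the pan-macrophage markers at 0.91 and -0.03 and all genes tested at -0.03 and 0.01.

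Some markers of other cells moved with the same contrasts, and their part in the changes of the 10 genes was not tested. Over all tested genes, 5.19% rose and 5.21% fell with the fatty diet in vehicle. The shares were 8.60% and 7.91% with PFOA in HFD, and 11.8% and 12.6% with PFOA in CD. A single call in a list of 12 or 14 genes lies near these shares. With the fatty diet in vehicle, 6 of 12 pan-macrophage, 4 of 12 recruited monocyte, 3 of 14 Kupffer cell and 3 of 12 dendritic cell markers rose, and 1 Kupffer cell marker, Nr1h3, fell. With PFOA in HFD, 1 dendritic cell marker, Zbtb46, rose. Ccr2, the monocyte chemokine receptor, rose from 2.197 ± 0.852 to 6.94 ± 1.26 CPM and Treml4 from 3.37 ± 1.08 to 10.8 ± 2.57 CPM. The 14 Kupffer cell markers had a median log2 fold change of 0.08 with the fatty diet in vehicle. Of these, 9 lay above 0 and 5 below, from -1.66 to 1.24. Among them, Cd5l rose from 66.9 ± 15.8 to 158 ± 41.4 CPM, and Slc40a1 was at 107 ± 24.4 and 111 ± 16.6 CPM. With PFOA in HFD, 1 of 12 pan-macrophage markers fell, Mpeg1 (log2 -0.68 ± 0.22, edgeR adjusted p = 0.0375), and 0 of 12 monocyte and 0 of 14 Kupffer cell markers changed. Lyz2 was at 100.1 ± 18.3 CPM in HFD_vehicle and 111 ± 41.1 CPM in HFD_PFOA. With PFOA in CD, Mpeg1 and Nr1h3 fell and no other gene of these 3 lists changed.

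The same shares apply to the lists that follow: 5.19% of tested genes rose and 5.21% fell with the fatty diet. With PFOA in HFD 8.60% rose and 7.91% fell, and with PFOA in CD 12.6% fell. Of 10 cholangiocyte markers, 2 rose with the fatty diet and fell with PFOA in HFD, Spp1 itself and Tspan8 (log2 1.54 ± 0.33 and -1.19 ± 0.32). Sox9, a transcription factor of bile duct cells, did not pass in either contrast (edgeR adjusted p = 0.200 and 0.943). Of 12 stellate cell and fibroblast markers, 6 rose with the fatty diet, with Col3a1 at 1.48 ± 0.21 (log2), and 0 changed with PFOA in HFD. Of 10 sinusoidal endothelium markers, 2 rose and 2 fell with the fatty diet, and 2 rose with PFOA in HFD. Of 10 hepatocyte markers, 7 fell with the fatty diet and 7 with PFOA in HFD, and Alb had log2 fold changes of -0.61 ± 0.14 and -0.66 ± 0.14. Neutrophil markers summed to 1.73 to 30.0 CPM per library, with Ly6g at 0 in 16 of 16 libraries, and 0 of 8 tested passed in either contrast, as did 0 of 10 T and NK cell markers. Among 9 tested B and plasma cell markers, 1 fell with the fatty diet in vehicle and 2 with PFOA in CD, Igkc and Jchain, both contrasts against the group of CD_vehicle 4.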

How the data were processed

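RNA of flash-frozen livers was sequenced from 16 mice in non-stranded libraries, per the labels' protocols. Counting used featureCounts (Subread 1.6.0) after STAR 2.5.2b, with bcl2fastq 2.20.0.422 and Trimmomatic 0.33 also listed, on GRCm38 (mm10), per the submitters' processing notes. For the annotation release and the treatment of reads shared between genes, nothing is given in these notes. The authors deposited raw counts per gene, whole numbers for 53465 genes, with 14456524 to 25778125 counts per library. Reads carry no molecular identifiers, so counting limits cover counting error only. Gene IDs were matched to GENCODE M21 for positions (50604 IDs with the same version).

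The 10 genes and all gene lists were chosen with earlier results of these data known. Names beside the 10 were drawn from up to 6 genes with the smallest p of each of 2 pathway lists, the 3 most abundant genes of each of 11 marker lists and the 5 most similar genes. Not all of these are printed, and one is not reported here. Tyrobp, Clec7a, Tspan8 and others outside this rule were chosen after their values were seen. In edgeR 4.0.16, filterByExpr left 14998 genes, which were scaled by TMM and fitted together over 4 groups (glmQLFit, glmQLFTest, 12 residual degrees of freedom). Benjamini-Hochberg adjustment covered all tested genes, and an adjusted p under 0.05 was a call. The method was tested on simulated data. Each library is a separate mouse, and all pairs within a group differed beyond sampling noise (chi-square divided by its degrees of freedom, 8.55 to 152). Replicate numbers are names in record order and pair no mice. Alternatives were other size factors, library totals, no filter, DESeq2 1.42.0, fits on 2 groups and each library left out. Leaving out CD_vehicle 4 and HFD_PFOA 1 together was chosen after seeing the data.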

Additional observations from a re-analysis of the deposited data

Results flagged for a closer look

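In 6 of 40 combinations of gene and group, 1 library lay far from the other 3 by Dixon's test at the 95% level. Chance flags about 1 in 20 groups, and the genes share libraries. Library CD_vehicle 4 was high in 4 of them: Gpnmb at 2.18 CPM (next 0.281), Mmp12 at 6.96 CPM (next 1.31), Spp1 at 81.4 CPM (next 41.1) and Cd63 at 5.34 CPM (next 1.19). Library HFD_PFOA 1 was low in the other two, Gpnmb at 5.59 CPM (next 34.1) and Lgals3 at 11.3 CPM (next 19.7).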

How the results depend on the processing

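Of the fold changes of the 10 genes under all alternatives, 999 kept direction and side of the threshold, 25 lost and 50 gained a call, and 16 changed sign; the cause was not tested. No paired analysis was possible because the labels give no replicate numbers. Without the filter on low counts (27956 genes tested), PFOA in CD called 3 of the 10 higher and 1 lower (6.08% and 6.10% of tested genes), PFOA in HFD 7 lower (4.14%), HFD in PFOA 4 higher (0.508%) and the interaction 5 lower (0.569%). Fits on 2 groups called 7 higher for HFD in vehicle (3.54%) in place of 9, 6 lower for PFOA in HFD (12.3%) and 2 higher for HFD in PFOA (0.537%). Library totals called 2 lower for PFOA in HFD (9.02%) in place of 3. DESeq2 called 1 lower for the interaction (1.85% of genes with an adjusted p, in either direction). Leaving out 1 library gave 1 to 5 called higher (9.80% to 12.8% of tested genes) and 0 to 1 lower (10.2% to 13.1%) for PFOA in CD. It gave 1 to 4 lower for PFOA in HFD (6.06% to 9.01%) and 7 to 10 higher for HFD in vehicle (2.91% to 7.99%). HFD in PFOA had 0 higher (0% to 0.280%) and the interaction 0 to 5 lower (0.0586% to 1.52%). The extremes came without CD_vehicle 4 (5 and 5), CD_PFOA 4 (1 lower) and HFD_vehicle 4 (1 lower for PFOA in HFD), and CD_PFOA 3 gave 2 higher for PFOA in CD. Without CD_vehicle 4 and HFD_PFOA 1 together, 5 were higher for PFOA in CD (13.1% of tested genes) and 2 for HFD in PFOA (0.439%). For the interaction 4 were then lower (1.01%).

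Of the values that changed sign, none passed the threshold on either side. In PFOA in CD, Itgax was at 0.0198 with library totals and -0.30 to 0.74 with 1 library left out (above 0 without CD_vehicle 4, CD_PFOA 2 or CD_PFOA 3), and at 0.74 without both libraries. Atp6v0d2 was at -0.48 to 0.32 with 1 library left out (above 0 without CD_vehicle 4), and at 0.32 without both. In PFOA in HFD, Cd9 was at 0.0028 with DESeq2 size factors, 0.0035 with DESeq2, -0.10 to 0.11 with 1 library left out (above 0 without HFD_vehicle 2, HFD_vehicle 4 or HFD_PFOA 1), and 0.03 without both. In HFD in PFOA, Atp6v0d2 was at -0.11 to 0.26 with 1 library left out (below 0 without CD_PFOA 1, HFD_PFOA 3 or HFD_PFOA 4) and at 0.26 without both. Trem2 and Gpnmb rest on few counts in CD_vehicle, at most 28 and 51 per library, which limits their fold changes.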
